A study of Mus musculus with 14 samples.

Results

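The miRNAs mmu-miR-103 and mmu-miR-107 are close paralogues that are cut from introns of pantothenate kinase genes, and they are described here across 14 mouse tissues. The members were taken by name, as 2 of the 1046 miRNA names in the deposited count table, and not by any measured value. All mice were C57BL/6J, an inbred laboratory strain, and the tissues were oesophagus, brain, kidney, lung, cerebellum, spleen, liver, stomach, heart, pancreas and small intestine, with the libraries labelled colon, uterus and ovary. Total RNA of several animals was pooled into a single small RNA library for each tissue. The labels are not in accord on the animals, giving 5 harvested and 10 pooled, and they name no age or sex. No tissue has a replicate, so no test between tissues was run, every comparison is between libraries, and all intervals cover counting error only. Reads without molecular identifiers are not independent molecules, and in bulk tissue fewer cells of a type and less RNA per cell cannot be told apart.

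Pantothenate kinases catalyse the rate-limiting step of coenzyme A synthesis, and miR-103 and miR-107 share the transcripts of their hosts. A miRNA pairs with mRNAs mainly through its seed, bases 2 to 8, and represses them. The pair is known from studies of insulin sensitivity and lipid metabolism and from the repression of Dicer, and miR-103 is a common reference RNA in RT-qPCR because many tissues contain it.

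The mature forms are printed with the seed in capitals, from RefSeq (GRCm38.p6), where the older names correspond to the 3p arms.
miR-103: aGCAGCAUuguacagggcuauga
miR-107: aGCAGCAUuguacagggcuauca
Both have 23 bases and differ by 1 substitution, G22C, with the miR-103 base first and positions counted from 1 at the 5′ end. The first 21 bases are identical, so a read that ends before position 22 matches both names. How such reads were counted is not given in the sources used here, and its effect on the ratio was not tested. Among 1679 mouse mature names in the RefSeq table, these 2 were the only ones with the seed GCAGCAU.

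The same mature miR-103 comes from a pair of genes, and miR-107 from a single gene. The RefSeq hairpins are shown with the mature strand in capitals, to make the shared strand and the differing loops visible.
Mir103-1: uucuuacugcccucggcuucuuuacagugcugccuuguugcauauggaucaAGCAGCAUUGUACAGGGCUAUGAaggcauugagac
Mir103-2: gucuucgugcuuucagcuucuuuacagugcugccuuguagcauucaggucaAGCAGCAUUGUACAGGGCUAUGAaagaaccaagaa
Mir107: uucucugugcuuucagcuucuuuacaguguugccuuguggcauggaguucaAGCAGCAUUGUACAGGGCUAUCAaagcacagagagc
In the RefSeq annotation of GRCm38.p6, Mir103-1 lies at chr11:35782396-35782481 on the plus strand, Mir103-2 at chr2:131288052-131288137 on the plus strand and Mir107 at chr19:34820687-34820773 on the minus strand. In the GENCODE M21 principal transcripts each hairpin is on the sense strand of intron 5 of a host with 7 exons, namely Pank3 for Mir103-1, Pank2 for Mir103-2 and Pank1 for Mir107. The deposited table holds no coordinates and its build is not given. Its single miR-103 name cannot tell the Mir103 genes apart, and host mRNAs were not measured.

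Library totals ran from 622132 reads in pancreas to 9341000 in small intestine, and a level is given as RPM, the count divided by the library total and multiplied by 1000000. Of 29 checks of a tissue against its known miRNAs, 25 placed the marker among the 3 highest libraries. The exceptions were miR-375, in place 4 in pancreas, and miR-192, miR-194 and miR-215, which were lowest of all 14 in the library labelled colon. These intestinal names were in place 3, 3 and 2 of 14 in the library labelled uterus, at 26135, 1545 and 51092 RPM, so both libraries are called by their labels. Whether these columns were exchanged was not tested, and if they were, each value given for one belongs to the other. No marker was set for ovary or uterus. miR-143 alone made up 98.7% of the colon-labelled reads and 87.1% of the ovary reads, against 4.01% to 70.2% elsewhere. An abundant name lowers the RPM of all others in its library. Levels are therefore also given after median-of-ratios scaling, which uses the 162 names with reads in every library. Relative to the median library, it moved values on the log2 scale by −1.35 in kidney to 4.61 in the library labelled colon. Totals without miR-143 moved them by −0.75 to 5.46, and totals without the 5 most abundant names by −1.27 to 5.07. The ratio of the members within a library and their rank in it depend on no scaling.

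miR-103 was present in all 14 libraries, with 94880 reads in all and a median of 1018 RPM. It reached 3103 RPM in oesophagus (95% exact Poisson interval 3055 to 3151), 2276 in brain, 1939 in kidney, 1471 in lung and 1230 in small intestine. It stood at 1116 RPM in the library labelled uterus, 1107 in cerebellum, 929 in spleen, 622 in liver, 582 in stomach and 530.4 in heart. The low end was 124 RPM in pancreas (97.7 to 155), 60.9 in ovary (51.1 to 71.9) and 21.1 in the library labelled colon (17.8 to 24.9), from 77, 138 and 141 reads. The 3 lowest libraries are the shallowest one and those filled by miR-143, and the others lay between 530.4 and 3103 RPM. Along this order, 12 of 13 neighbouring libraries differed beyond counting error, and only the library labelled uterus and cerebellum did not (1.01-fold, 0.95 to 1.07).

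miR-107 was far scarcer, with 2298 reads in all and a median of 14.1 RPM. It was highest in brain at 93.5 RPM (85.4 to 102) and kidney at 90.7 RPM (84.6 to 97.0), which did not differ beyond counting error (1.03-fold, 0.921 to 1.15). Oesophagus followed at 38.5 RPM, 2.36-fold below kidney (2.02 to 2.76), then lung at 23.9, liver at 19.5, small intestine at 15.0, spleen at 14.8 and the library labelled uterus at 13.5. Heart held 11.4 RPM, cerebellum 8.81 (4.23 to 16.2, from 10 reads) and stomach 8.18. Ovary had 6 reads (2.65 RPM, 0.971 to 5.76), the library labelled colon 2 reads (0.300 RPM, 0.0363 to 1.08) and pancreas 1 read (1.61 RPM, 0.0407 to 8.96). Only 4 of the 13 neighbouring pairs in this order differed beyond counting error. Brain and kidney formed the top of the order, and at the low end neither ovary and pancreas nor pancreas and the library labelled colon differed beyond counting error.

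**Figure D1:**
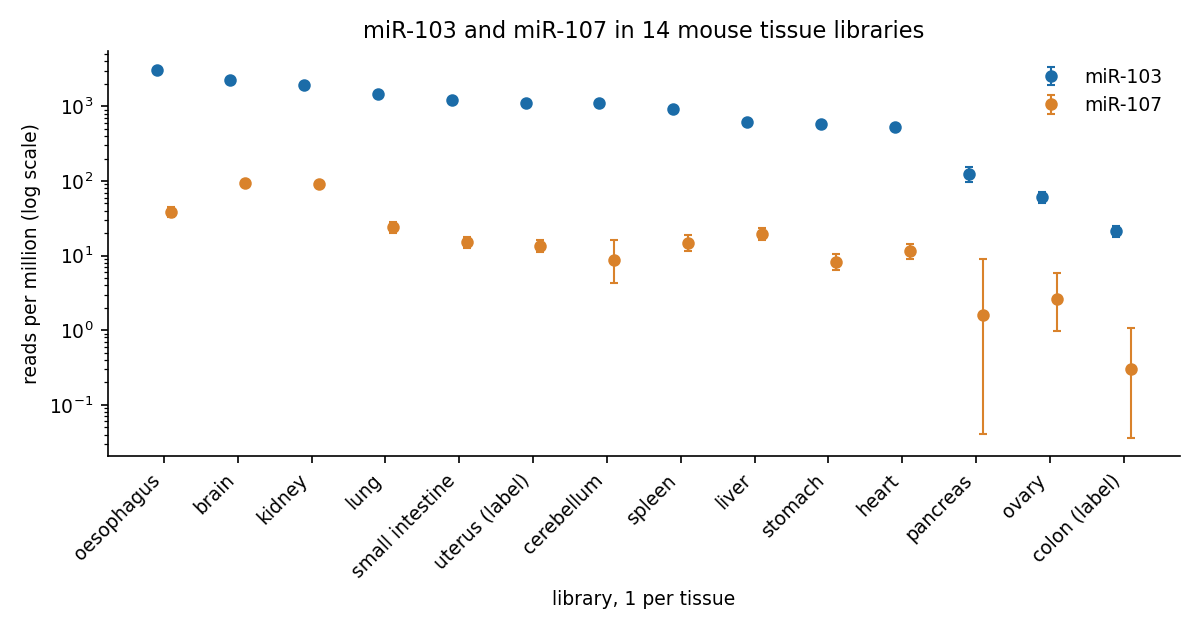
RPM of miR-103 (blue) and miR-107 (orange) on a log axis in each of the 14 libraries, ordered by miR-103, with 95% exact Poisson intervals as bars. miR-103 runs from 3103 RPM in oesophagus to 21.1 in the library labelled colon, while miR-107 is highest in brain and kidney at 93.5 and 90.7 RPM.

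Within a library, miR-103 held a steady place. Its rank by reads ran from 21 in oesophagus to 48 in cerebellum, with a median of 34.5, and in the 3 libraries with its lowest RPM it ranked 35 (ovary), 38 (labelled colon) and 46 (pancreas). Its rank in the library labelled colon is thus close to its rank in lung, heart and ovary (35 in each). miR-107 ranked between 113 in kidney and 281 in cerebellum, with a median of 158. Between 240 and 670 names had reads in a library, so ranks of the scarcer miR-107 also move with how many names were seen.

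The ratio of the members needs no scaling, and kidney, brain and liver had the lowest ratios among libraries with at least 20 reads of miR-107. miR-103 had 21.4 reads per read of miR-107 in kidney (95% exact conditional interval 20 to 22.9, 17898 against 837 reads), 24.4 in brain (22.3 to 26.7, 12103 against 497) and 31.8 in liver (26.6 to 38.4, 3947 against 124). Heart followed at 46.6 (37.3 to 59.0), lung at 61.5 (52.1 to 73.1), spleen at 62.6 (49.6 to 80.2) and stomach at 71.2 (56.1 to 91.6). Oesophagus at 80.7 (70.2 to 93.1), small intestine at 82.0 (69.5 to 97.6) and the library labelled uterus at 83.0 (69.1 to 100.4) differed by less than counting error. Among these libraries, kidney, brain and liver therefore held the larger shares of miR-107, at 4.47%, 3.94% and 3.05% of the summed reads, against 1.20% in small intestine. Ovary had 4.17%, on 6 reads of miR-107 (1.54% to 8.85%). Reads that end before position 22 match both names, and their effect on these shares was not tested.

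Cerebellum stood at the opposite end from brain. Its ratio was 126 (68.1 to 263, 1256 against 10 reads), which is 5.16 times that of brain (2.77 to 10.9) and 5.87 times that of kidney (3.17 to 12.3). It was 1.51 times that of the library labelled uterus, within counting error (0.792 to 3.25), and it differed from 7 of the other 13 libraries. The ratio was 23.0 in ovary (10.3 to 63.8, 138 against 6 reads), 70.5 in the library labelled colon (19.2 to 588, 141 against 2) and 77.0 in pancreas (13.4 to 3080.3, 77 against 1). Ovary lay near kidney and brain, but its few reads did not separate it from lung either (2.67 times higher in lung, 0.948 to 6.11).

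Some neighbours in this order were separate and most were not. Liver was 1.31 times brain (1.07 to 1.61) and heart 1.46 times liver (1.09 to 1.97), whereas lung was 1.32 times heart (0.987 to 1.76) and spleen 1.02 times lung (0.760 to 1.37). Brain itself was 1.14 times kidney (1.02 to 1.28). In all, the interval of the ratio of ratios left out 1 for 42 of the 91 pairs of libraries, with no adjustment for their number. Kidney, brain and liver each differed from 10 of the other 13 libraries, and the library labelled colon and pancreas from 0, with 2 and 1 reads of miR-107.

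**Figure D2:**
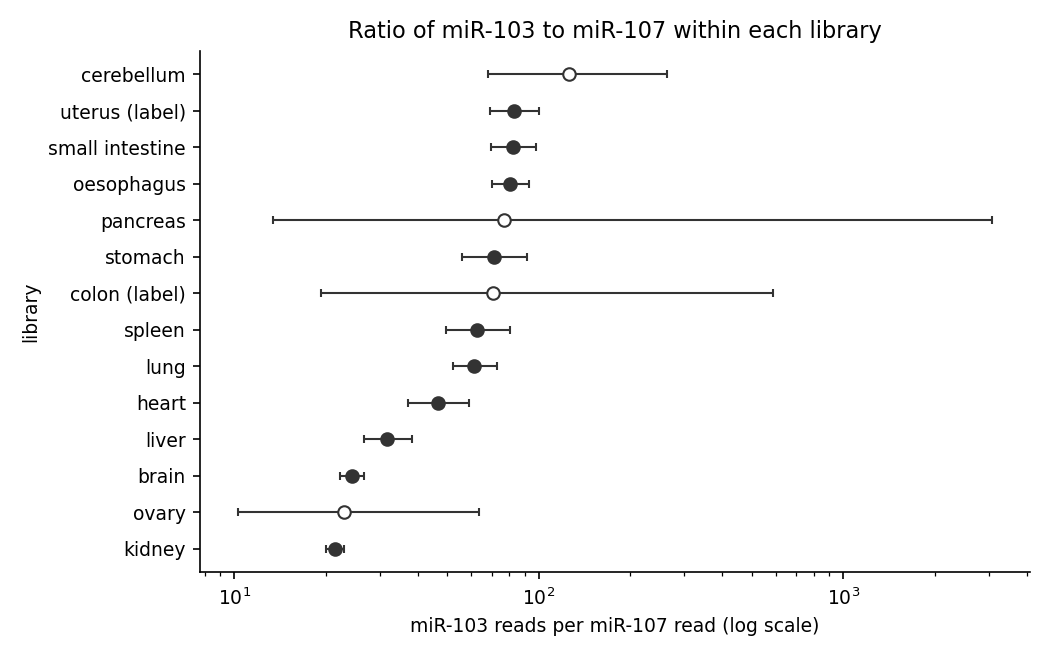
Reads of miR-103 per read of miR-107 within each library on a log axis, with 95% exact conditional binomial intervals as bars. Open points mark the 4 libraries with fewer than 20 reads of miR-107. Kidney, brain and liver lie at 21.4 to 31.8, and oesophagus, small intestine and the library labelled uterus at 80.7 to 83.0.

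The opposite strands of the same hairpins gave a separate readout. They are listed as star names, usually the less abundant strand, and are printed to show where they differ, with bases 2 to 8 in capitals.
miR-103-1*: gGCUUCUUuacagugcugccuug
miR-103-2*: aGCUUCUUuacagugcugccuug
miR-107*: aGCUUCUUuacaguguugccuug
miR-103-2* and miR-107* differ by C16U, inside the sequence, while the stars of the Mir103 genes differ by A1G only. All 3 names were scarce. miR-107* had 20 reads in 5 libraries, of which 11 were in kidney, 4 in brain, 2 in oesophagus, 2 in lung and 1 in heart. miR-103-2* had 14 reads in 9 libraries, with 4 in kidney as its highest count, and miR-103-1* had 1 read, in small intestine. The star of miR-107 was thus seen most in the libraries where miR-107 itself was highest, at 1.19 RPM in kidney (0.595 to 2.13) and 0.752 in brain (0.205 to 1.93). It had 0 reads in liver, where 3 reads would be 0.473 RPM, and 4 libraries had no star read of any of the 3 names. In pancreas and cerebellum, 0 reads still allow up to 5.93 and 3.25 RPM of miR-107*, so the order of libraries by this star is not settled.

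In the counts as deposited, star and mature reads stood in different proportions for the members. Over all libraries there were 115 reads of miR-107 per read of its star (74.2 to 188), but 6325 reads of miR-103 per star read of its genes (3835 to 11302). miR-107* made up 57.1% of the star reads of the 3 hairpins (exact binomial interval 39.4% to 73.7%), while miR-107 made up 2.36% of the mature reads (2.27% to 2.46%). These sums weight libraries by depth, and kidney gave 11 of the 20 reads of miR-107*. Mature reads that end before the base where the members differ match both names. How such reads were counted is not given in the sources used here, and their effect on these proportions was not tested.

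How far each library stood from the others was measured as RPM plus 1 over the median of the other 13 libraries, and a name was called at 2-fold or more. Shares of calls are over the 418 names with at least 10 RPM in some library. miR-103 was called higher in oesophagus (3.34-fold, as were 51.0% of all names), brain (2.45-fold, 66.0%) and kidney (2.09-fold, 46.9%). It was called lower in heart (2.08-fold, 24.2%), pancreas (8.88-fold, 51.4%), ovary (17.9-fold, 62.7%) and the library labelled colon (50.1-fold, 68.2%). Outside heart, each call was thus shared with 46.9% or more of all names. After median-of-ratios scaling only oesophagus was called, at 2.04-fold (23.7% of names higher), and none was called lower. Small intestine (1.94-fold) and the library labelled uterus (1.93-fold) lay just under the 2-fold line. Their scaled levels were 1037 and 1036, against 1095 in oesophagus, so the rule splits libraries of nearly equal level. The log2 folds of miR-103 ran from −0.58 in pancreas to 1.03 in oesophagus.

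miR-107 was called higher in the same 3 libraries with totals, by 6.54-fold in brain (66.0% of names higher), 6.34-fold in kidney (46.9%) and 2.73-fold in oesophagus (51.0%). It was called lower in pancreas (6.07-fold, 51.4% of names lower), ovary (4.34-fold, 62.7%) and the library labelled colon (12.2-fold, 68.2%), on 1, 6 and 2 reads. After median-of-ratios scaling brain (2.64-fold, 53.1% of names higher) and kidney (2.10-fold, 15.3%) were called higher. Cerebellum (2.66-fold, 20.1% of names lower), stomach (2.04-fold, 8.61%), pancreas (2.25-fold, 29.7%) and the library labelled colon (2.06-fold, 21.8%) were called lower, the last pair on 1 and 2 reads. Kidney and stomach calls were shared by the fewest names here, and the brain call by the most. The stomach call held under only 1 of the 4 scalings, as its other log2 folds, from −0.79 to −0.16, were under 2-fold.

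miR-103 in oesophagus, and miR-107 in brain and kidney, were called higher under all 4 scalings, and miR-107 in pancreas, on 1 read, was called lower under all 4. With totals without miR-143 and totals without the 5 most abundant names, miR-103 in oesophagus stood at 1.06 and 1.23 (log2), where 36.8% and 37.6% of names were called higher. miR-107 in brain stood at 1.82 and 1.33 (55.7% and 53.1% of names higher), and miR-107 in kidney at 2.19 and 1.57 (33.0% and 25.4%). miR-107 in pancreas stood at −3.57 and −2.91 (65.8% and 62.0% of names lower). In cerebellum, from 10 reads, miR-107 was called lower under 3 of the 4 scalings, at −1.63 and −1.81 under these (24.6% and 26.8% of names lower). The brain and pancreas calls were thus shared with most names under both scalings. miR-103 in brain stood at 0.33 and 0.16 and in kidney at 0.51 and 0.22 under those scalings, below the 2-fold line. miR-103 in pancreas stood at −3.91 and −2.62, but at −0.58 with median-of-ratios. It was also past the 2-fold line in ovary (−2.05 and −1.36) and liver (−1.56 and −1.38), but at −0.29 and 0.35 with median-of-ratios. In heart it stood at −1.53 and 0.18. For ovary, liver and heart the share of all names under these scalings is not given.

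**Figure D3:**
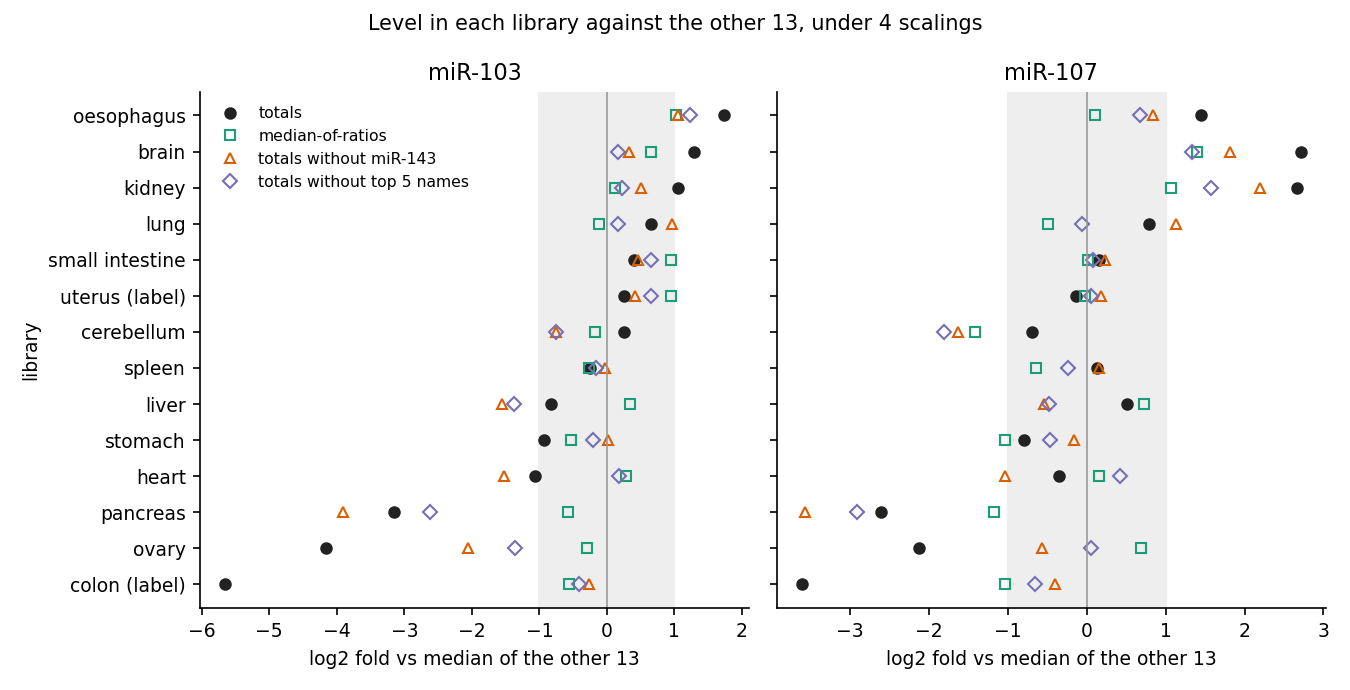
Log2 fold of miR-103 (left) and miR-107 (right) in each library against the median of the other 13, with a marker for each of 4 scalings, a grey band for less than 2-fold, and a scale of its own for each panel. miR-103 in oesophagus and miR-107 in brain and kidney stay to the right of the band under all 4, while the values for the library labelled colon run from −5.65 to −0.26 for miR-103.

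Evenness over tissues was measured by the specificity index tau on log2(RPM + 1), which is 0 for equal levels and 1 for a single tissue. miR-103 had 0.218, the sixteenth lowest of 418 names, against a median of 0.640. miR-107 had 0.456 and was in place 112. After median-of-ratios scaling miR-103 had 0.0894 (place 2) and miR-107 0.315 (place 69), against a median of 0.622. By this index miR-103 was thus among the most even names under both scalings, and miR-107 was less even. Each log2 value is divided by the highest, so at the same fold range tau is lower for a more abundant name. With totals, miR-143 had the lowest tau of the 418, 0.105, although it made up 4.01% to 98.7% of reads. The order of names by tau, including that of the references below, therefore also moves with their level.

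Other miRNAs used as RT-qPCR references gave a frame for miR-103. With totals, 4 of the 8 had a lower tau than the 0.218 of miR-103, namely let-7a (0.156), miR-191 from an intron of Dalrd3 (0.180), miR-24 (0.181) and miR-26b (0.209). The others were miR-93 (0.245), miR-16 (0.301), miR-92a (0.304) and miR-25 (0.340). The order changed under other scalings. After median-of-ratios scaling, miR-103 had 0.0894, lower than miR-191 at 0.0978, miR-24 at 0.107, miR-26b at 0.178 and let-7a at 0.202. With totals without miR-143 let-7a was lower (0.126 against 0.135), and without the 5 most abundant names miR-24 was (0.0895 against 0.110). Read ratios to miR-103 within a library were steadiest for miR-191, with an SD over libraries of 0.853 on the log2 scale and a range from 0.557 in cerebellum to 3.30 in pancreas. They were widest for let-7a, with an SD of 1.95 and a range from 5.24 in oesophagus to 417 in pancreas, but without pancreas, ovary and the library labelled colon let-7a had 1.26 and miR-16 was widest at 1.44. miR-191 remained steadiest there, at 0.667. miR-16 ran from 0.0478 reads per miR-103 read in cerebellum to 2.29 in spleen. With median-of-ratios, 6 of these 8 names were at least 2-fold higher in spleen (median log2 fold 1.18, all names −0.05, and 18.4% of names called) and miR-103 was not (−0.27). With totals the count in spleen was 7 of 8 (median 1.85, all names 0.09, and 29.4% called).

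The ratio of the pair was also set beside that of 25 other pairs of related miRNAs, of which 22 had at least 20 reads of both names in at least 10 libraries. The log2 ratio of miR-103 to miR-107 had an SD of 0.807 over all 14 libraries and 0.744 over the 10 with enough reads, and 12 of the 22 other pairs were wider. Their median SD was 0.904, from 0.381 for let-7b and let-7c to 3.17 for miR-192 and miR-215. Bases were compared position by position from the 5′ end without alignment, which gave miR-101a with miR-101b (SD 1.17) 18 differing bases. By that count, 7 others of the 20 pairs with both sequences matched also differ by 1 base. Of these 7, miR-99a with miR-100 (1.08) and miR-10a with miR-10b (2.57) were wider. The spread of the miR-103 to miR-107 ratio was therefore in the middle of all 23 pairs. Beside the pairs with 1 differing base it was on the wide side, as only 2 of the 7 exceeded it. With 100 reads or more the SD was 0.874, and 9 of 19 other pairs were wider. Only 7 libraries then had enough reads of miR-107. The pairs use different libraries, so the SDs are a description.

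**Figure D4:**
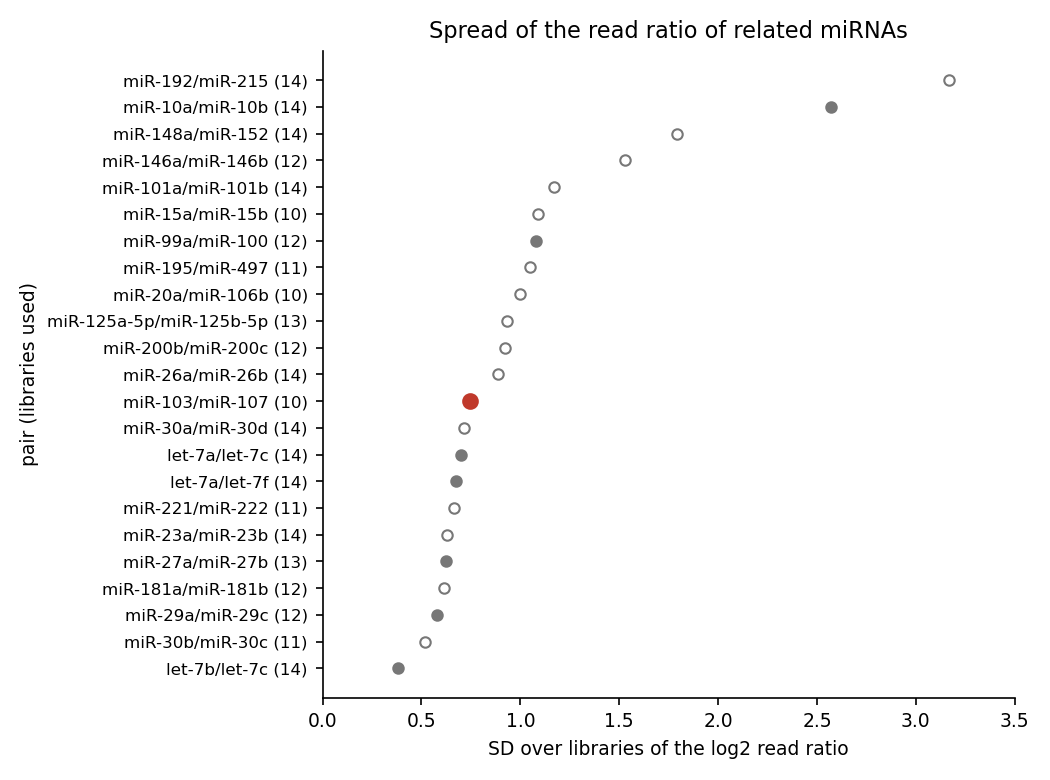
SD over libraries of the log2 read ratio for miR-103 with miR-107 (red) and 22 other pairs (grey), with the number of libraries in parentheses. Filled points are pairs that differ by 1 base when compared position by position without alignment. Open points differ by more on that count or were not matched to a sequence. The pair stands at 0.744, in place 11 of 23 from the steadiest.

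Over the 14 libraries the members rose and fell together, with a Pearson r of 0.902 and a Spearman rho of 0.903 on log2(RPM + 1). These points share library depth and the share of miR-143, and r was 0.755 over the 11 libraries other than those labelled colon, ovary and pancreas and 0.532 after median-of-ratios scaling, where the median name had 0.046 with miR-103. Among 129 names with at least 10 RPM in at least 10 libraries, those most like miR-103 were miR-872 (0.956), miR-27b* (0.953), miR-652 (0.936), miR-532-5p (0.934) and miR-186 (0.933), where the median name had 0.760. miR-107 reached 10 RPM in only 9 libraries and was left out of that list by this rule. Its rho of 0.903 with miR-103 was above the highest in the list, 0.873 for miR-872. Among 130 names, miR-103 included, those most like miR-107 were miR-221 (0.918), miR-140 (0.910), miR-1981 (0.907), miR-103 itself and miR-151-5p (0.901), with a median of 0.703. miR-221 and miR-151-5p were highest in brain, at 1081 and 1233 RPM, and miR-140 and miR-1981 in kidney, at 482 and 683 RPM. These names were picked for their likeness over the same libraries, so sharing the top libraries of miR-107 is no separate result. After median-of-ratios scaling 4 of the 5 names stayed among the first 5 for miR-107 and 2 of 5 for miR-103. The latter were miR-872 (0.522) and miR-27b* (0.514), both below the 0.532 of miR-107, which was not listed.

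The miR-15 and miR-16 family has a seed shifted by a single base against that of miR-103, so both families can pair with overlapping sites. The seeds are in capitals.
miR-103: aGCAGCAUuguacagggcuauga
miR-16: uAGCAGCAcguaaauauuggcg
miR-195: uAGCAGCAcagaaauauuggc
miR-503: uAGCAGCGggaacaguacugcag
Bases 1 to 7 of miR-103, AGCAGCA, are the seed of miR-15a, miR-15b, miR-16, miR-195, miR-322 and miR-497. miR-503, the remaining relative of the 7 listed, has AGCAGCG.

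miR-103 and miR-107 made up 71.8% of the reads summed over the pair and these 7 relatives in cerebellum (exact binomial interval 69.6% to 73.9%), 69.3% in the library labelled uterus and 65.2% in brain. Heart, oesophagus, kidney, small intestine and liver lay between 48.0% and 54.5%. Pancreas had 40.0% (33.1% to 47.2%), lung 39.3% and stomach 35.7%. Their share was lowest in ovary (21.5%, 18.5% to 24.8%), spleen (20.2%, 19.7% to 20.7%) and the library labelled colon (13.8%, 11.7% to 16.0%).

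miR-16, the best known relative, ranged from 2128 RPM in spleen to 15.9 in the library labelled colon. In spleen miR-195 stood at 789 and miR-322 at 376 RPM. In the library labelled colon miR-195 held 113 of the 134 RPM of the relatives. In cerebellum miR-16 stood at 52.9 RPM, and only miR-497, a partner of miR-195 in 1 cluster, was highest there, at 129 RPM. With totals, 6 of 7 relatives were called higher in spleen (29.4% of all names, and a median log2 fold of 1.78 against 0.09 for all names). The count was 5 of 7 in oesophagus (51.0% of names, 1.17 against 1.03), and 7 of 7 were called lower in pancreas (51.4% of names, −3.17 against −1.05). With median-of-ratios, 4 of 7 were called higher in spleen (18.4% of names, 1.49 against −0.05) and 0 in oesophagus (23.7% of names, 0.20 against 0.09). In cerebellum 6 of 7 were then called lower (20.1% of names, −2.20 against 0.98).

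**Figure D5:**
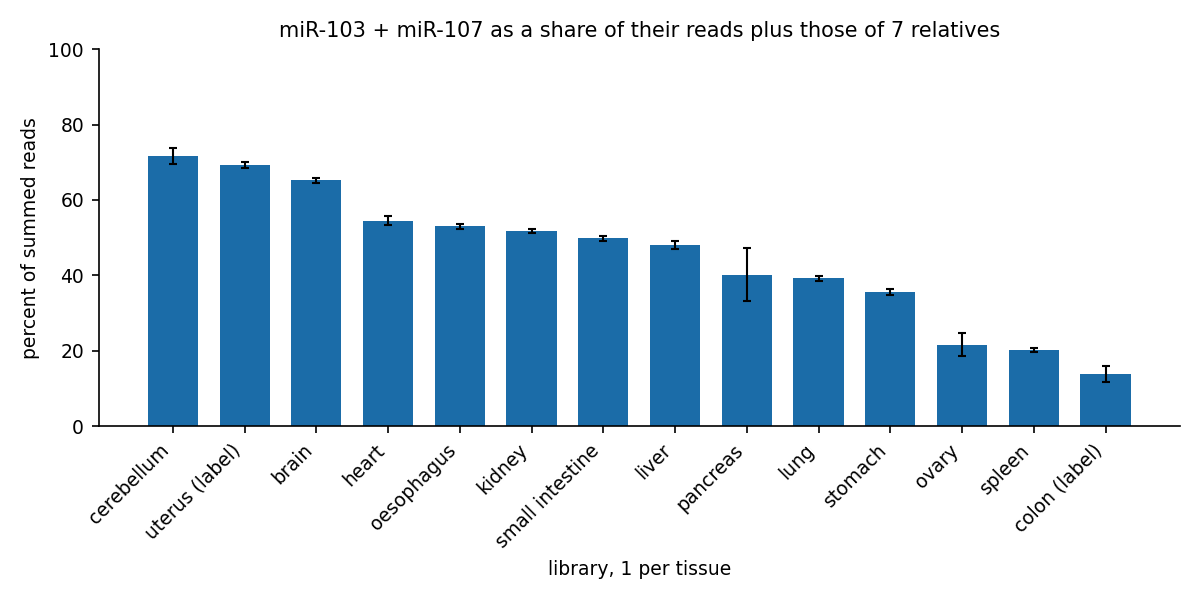
Reads of miR-103 plus miR-107 as a percent of their reads plus those of miR-15a, miR-15b, miR-16, miR-195, miR-322, miR-497 and miR-503, in each library, with 95% exact binomial intervals. The share falls from 71.8% in cerebellum to 20.2% in spleen and 13.8% in the library labelled colon.

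A list of 10 other miRNAs known from insulin, glucose and lipid metabolism, miR-143 among them, was set beside the pair. In kidney 8 of the 10 were called higher with totals (46.9% of all names, and a median log2 fold of 2.10 against 0.93 for all names). With median-of-ratios 3 were called higher there (15.3% of names) and 2 lower (median 0.29 against −0.05). In brain 7 of the 10 were called higher with totals (66.0% of names) and 2 lower (1.85 against 2.28), and 4 higher (53.1% of names) and 2 lower with median-of-ratios (0.19 against 1.23). The shares in brain were thus near or below those of all names. miR-29a, miR-29b and miR-29c, which target collagens and insulin pathway genes, were highest in brain, at 7822, 628 and 471 RPM. miR-33, from an intron of the sterol regulator Srebf2, was highest in kidney at 63.5 RPM. miR-378, from an intron of the coactivator gene Ppargc1b, was highest in heart at 356230.3 RPM, where miR-103 stood at 530.4 RPM. miR-122, the hepatocyte miRNA, reached 437407 RPM in liver, where miR-107 stood at 19.5 RPM.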

How the data were processed

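Small RNA reads of 14 tissues, 1 pooled library each, were analysed for miR-103 and miR-107. Per the labels' protocols, total RNA was obtained with Trizol and sequenced from standard Illumina libraries. The authors deposited unscaled read counts, 1 whole number for each name and library. How reads were trimmed, aligned and assigned when several names match is not given in the sources used here, nor is the miRNA release or genome build. Counts were divided by library totals to give RPM. Alternative scalings were median-of-ratios factors, totals without miR-143 and totals without the 5 most abundant names. Intervals are 95% exact Poisson, Clopper-Pearson or conditional binomial. No test between tissues was run. The 2-fold rule used a pseudocount of 1 RPM. The fold rule, with median-of-ratios in kidney, and the ratio interval were run on simulated Poisson counts. That simulation did not cover the other scalings or counts as low as those of miR-107 in its scarcest libraries. Members were taken by name, but members, lists, pairs and rules were all chosen with earlier results of these data known. Named were the members, their star names, the 5 names most like each, list members and the pairs with the smallest and largest spread, and the miR-10 and miR-99a pairs were named after their values were seen. Python 3.11.15, numpy 2.4.6, pandas 2.3.3 and scipy 1.17.1 were used.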

Additional observations from a re-analysis of the deposited data

How the results depend on the processing

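Depth limits miR-107 in cerebellum, ovary, pancreas and the library labelled colon, which have 10, 6, 1 and 2 reads. The cause of the shifts below was not tested.

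The number of libraries at least 2-fold higher for miR-103 was 1 with each of the 3 other scalings and 0 by a 4-fold rule. The number lower was 0 with median-of-ratios. In heart, miR-103 changed sign to 0.29 with median-of-ratios and 0.18 without the 5 most abundant names. In ovary, miR-107 changed sign to 0.69 and 0.06 under the same settings. Over both members, all libraries and the 3 other scalings and a pseudocount of 10 RPM, 20 of 112 log2 folds had the opposite sign to that with totals. Of these, 16 were under 2-fold with totals, and the other 4 are those in heart and ovary above. All 14 ratios stayed within their intervals with 1 read added to both names, which says little where the interval is wide. In pancreas the ratio fell from 77 to 39, and in the library labelled colon from 70.5 to 47.3.

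With median-of-ratios, totals without miR-143, totals without the 5 most abundant names, a pseudocount of 10 RPM, and without the libraries labelled colon and ovary, tau was 0.0894, 0.135, 0.110, 0.298 and 0.158 for miR-103 and 0.315, 0.338, 0.222, 0.629 and 0.388 for miR-107. The highest library over the lowest was 147-fold for miR-103 with totals, and 2.81, 31.2 and 12.9 under the 3 other scalings. For miR-107 it was 312-fold, and 8.38, 76.9 and 23.0. Of the 3 libraries highest in miR-103, 1 was kept with median-of-ratios and 1 without the 5 most abundant names.

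The SD of the log2 ratio was 0.783 without the libraries labelled colon and ovary, 0.826 without pancreas, 0.797 with 1 read added, and 0.744 without libraries under 20 reads of miR-107, the last chosen after seeing the data. At 100 reads or more, 9 of 19 other pairs were wider, with 7 libraries left for the members. The likeness of the members was 0.903 by Spearman, 0.532 with median-of-ratios, 0.841 with totals without miR-143, 0.857 without the libraries labelled colon and ovary, and 0.755 without pancreas too, chosen after seeing the data. Of the 5 names most like miR-103, in lists that leave out miR-107, 1 was kept by Spearman, 2 with totals without miR-143 and 2 with median-of-ratios. For miR-107, 2 were kept by Spearman. No paired analysis was possible because each tissue has 1 library.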
